A study of Mus musculus with 2 samples.

Results

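The NADPH oxidases and dual oxidases are membrane enzymes that pass electrons from NADPH to oxygen and release superoxide or hydrogen peroxide, and 9 of their genes were followed here in colon cells of mice with colitis. The members were 3 catalytic subunits (Duox2, Nox1 and Cybb) and 6 partner proteins (Duoxa2, Noxo1, Noxa1, Cyba, Ncf1 and Ncf4), chosen by gene symbol from the 55357 genes of the deposited count matrices. All 9 had 1 row each, and all 9 passed the filter on low counts.

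The data came from single-cell RNA sequencing of colon, with 1 group of 2 libraries, called library 1 and library 2 after the repeat numbers in the labels. The mice were 7 weeks old, were kept specific-pathogen-free, and drank 3% DSS (dextran sulfate sodium), which damages colon epithelium and brings on colitis, for 6 days before the mid-colon was taken. The labels used here name no strain, genotype or sex and do not say that the repeats were separate animals. The p-values thus rest on how closely differences between cell classes repeat in these 2 libraries, a spread that may be only technical. No untreated sample was analysed here, so every comparison is between cell classes of inflamed colon and none is an effect of DSS.

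The dual oxidase DUOX2 releases hydrogen peroxide at the apical face of gut epithelium and needs the maturation factor DUOXA2 to leave the endoplasmic reticulum. NOX1, the other catalytic subunit known from colon epithelium, works with the organiser NOXO1, the activator NOXA1 and the membrane partner p22phox, the product of Cyba. The phagocyte oxidase, which makes the respiratory burst that kills microbes, joins gp91phox (Cybb) and p22phox in the membrane with cytosolic subunits, p47phox (Ncf1) and p40phox (Ncf4) among them, and a RAC GTPase.

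Library 1 held 76622643 UMIs (unique molecular identifiers, each standing for 1 captured RNA molecule) in 6597 barcodes, and library 2 held 94204110 in 9611. After removal of barcodes with few genes, high mitochondrial content or a likely doublet, 5419 and 8425 cells were left. The libraries shared 18 barcodes, 14 of them among kept cells. Cells were clustered without the genes of the lists used here and named from marker genes, so each class name below means cells like that type. Epithelium gave 1822 cells in library 1 and 1195 in library 2, mononuclear phagocytes 838 and 2685, neutrophils 438 and 930, lymphoid cells 1672 and 2552, and B cells 143 and 291. Plasma cells, fibroblasts, endothelium and mast cells gave 30 to 136 cells a library, and 286 and 348 cells stayed unnamed. Epithelium, phagocytes and neutrophils were clustered again, and their class sums keep the subclusters that then stayed unnamed. Those held 95 and 41 epithelial cells, 120 and 268 phagocytes and 60 and 90 neutrophils. Some were led by markers of another class, such as 76 and 17 epithelial cells (Retnlg and S100a9) and 46 and 152 phagocytes (S100a9 and S100a8). Levels below are in CPM, the UMIs of a gene scaled to 1000000 UMIs of that class in that library, and are given as library 1 and library 2.

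The dual oxidase pair lies head to head on mouse chromosome 2 in build GRCm38, with Duox2 at 122279247-122298449 on the minus strand and Duoxa2 at 122298900-122302885 on the plus strand. RefSeq places their starts 673 bases apart. The Duoxa2 gene body overlaps Duoxa1 on the opposite strand, and the use of strand in counting was not stated in what was read here. Cybb (X:9435252-9487771, minus strand) and Ncf4 (15:78244801-78262580, plus strand) overlap no other annotated gene. Nox1 (X:134086421-134221956, minus), Noxo1 (17:24696234-24700529, plus), Noxa1 (2:25085667-25095149, minus), Cyba (8:122424776-122432930, minus) and Ncf1 (5:134220053-134229625, minus) each overlap at least 1 other gene.

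RefSeq promoters (GRCm38.p6) were matched for 8 of the 9 members. A RefSeq start need not be the end of the gene body given above. That of Cybb (X:9469324) lies inside its gene body, as does that of Nox1 (X:134111854). The stretches shown are the 250 bases before the start of Duoxa2 (the dual oxidase partner, chr2:122298650-122298899, plus strand), of Cybb (the phagocyte catalytic subunit, chrX:9469325-9469574, minus strand) and of Ncf1 (the organiser that was highest in neutrophils, chr5:134229626-134229875, minus strand). They were chosen after the matches were seen, to show the matches to AP-1, the interferon response element and the STAT site. Nox1 and Noxa1, which matched NF-kB, and the other members are not shown. Capitals mark matches to AP-1 (TGANTCA), the TATA box (TATAAA), the interferon response element (GAAA and GAAA with any 2 bases between) and the STAT site (TTCNNNGAA), on either strand.
Duoxa2: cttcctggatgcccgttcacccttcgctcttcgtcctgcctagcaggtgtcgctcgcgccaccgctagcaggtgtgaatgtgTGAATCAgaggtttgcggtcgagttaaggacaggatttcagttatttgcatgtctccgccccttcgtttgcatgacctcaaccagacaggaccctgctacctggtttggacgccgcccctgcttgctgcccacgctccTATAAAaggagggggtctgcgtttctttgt
Cybb: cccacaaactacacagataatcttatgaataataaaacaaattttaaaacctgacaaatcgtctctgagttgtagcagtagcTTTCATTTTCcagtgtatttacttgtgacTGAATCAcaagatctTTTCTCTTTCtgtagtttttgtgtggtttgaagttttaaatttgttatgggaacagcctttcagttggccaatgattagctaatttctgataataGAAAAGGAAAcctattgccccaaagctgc
Ncf1: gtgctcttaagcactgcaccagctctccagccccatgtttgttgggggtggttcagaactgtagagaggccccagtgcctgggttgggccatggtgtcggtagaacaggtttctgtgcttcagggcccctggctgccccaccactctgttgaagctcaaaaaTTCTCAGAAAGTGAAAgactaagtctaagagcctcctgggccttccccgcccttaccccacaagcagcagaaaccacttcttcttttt
In all 13 motifs were searched in 300-base windows (250 before the start, 50 after), and they were chosen after a first look at these promoters. The AP-1 letters stood in Duoxa2 and Cybb and in 7.81% of all 32851 promoters, and the TATA letters stood in Duoxa2 and in 13.6%. The interferon response letters stood at 3 places in Cybb and at 1 in Ncf1, against 3.44% of all promoters with a match. The STAT letters stood in Ncf1 and in 8.30%, and overlapped its interferon response match. A PU.1 core (GAGGAA) stood in Cybb and Nox1 and in 28.3%, and NF-kB matched Nox1 and Noxa1 and 8.46%. Wide motifs matched more members: CDX (TTTATNN) 4 of 8 against 39.9% of all promoters, and KLF (CACCC) 6 of 8 against 57.5%. The CDX match of Duoxa2 covered its TATA match. No member matched CRE (TGACGTCA, 1.79%), HNF4 (CAAAGTCCA, 0.475%), longer PU.1 forms (GAGGAAGT, 3.20%, and AGAGGAA, 10.4%) or an IRF composite (GAAA and GGAA with any 3 bases between, 2.14%). A match is a run of letters, not a measured binding site.

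The 9 members divided between epithelium and myeloid cells. Duox2, Duoxa2, Nox1, Noxo1 and Noxa1 were highest in epithelium, Cybb in phagocytes, and Cyba, Ncf1 and Ncf4 in neutrophils by the fitted levels. Each of these 9 was called against every other class (edgeR quasi-likelihood test on the 18 class sums, Benjamini-Hochberg adjusted over 13848 genes), where 37.5% of all genes tested had such a class. Of the 9 calls, 4 did not hold under every alternative. Without composition factors (the scaling of each sum for what else it holds) those of Cyba and of Ncf1 against mast cells (0.57, adjusted p = 0.0603) were lost. With DESeq2 those of Cybb against neutrophils and of Nox1 (largest adjusted p over the other classes 0.0604) were lost, and that of Cybb was also lost with no replicate block and with doublets kept.

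**Figure D1:**
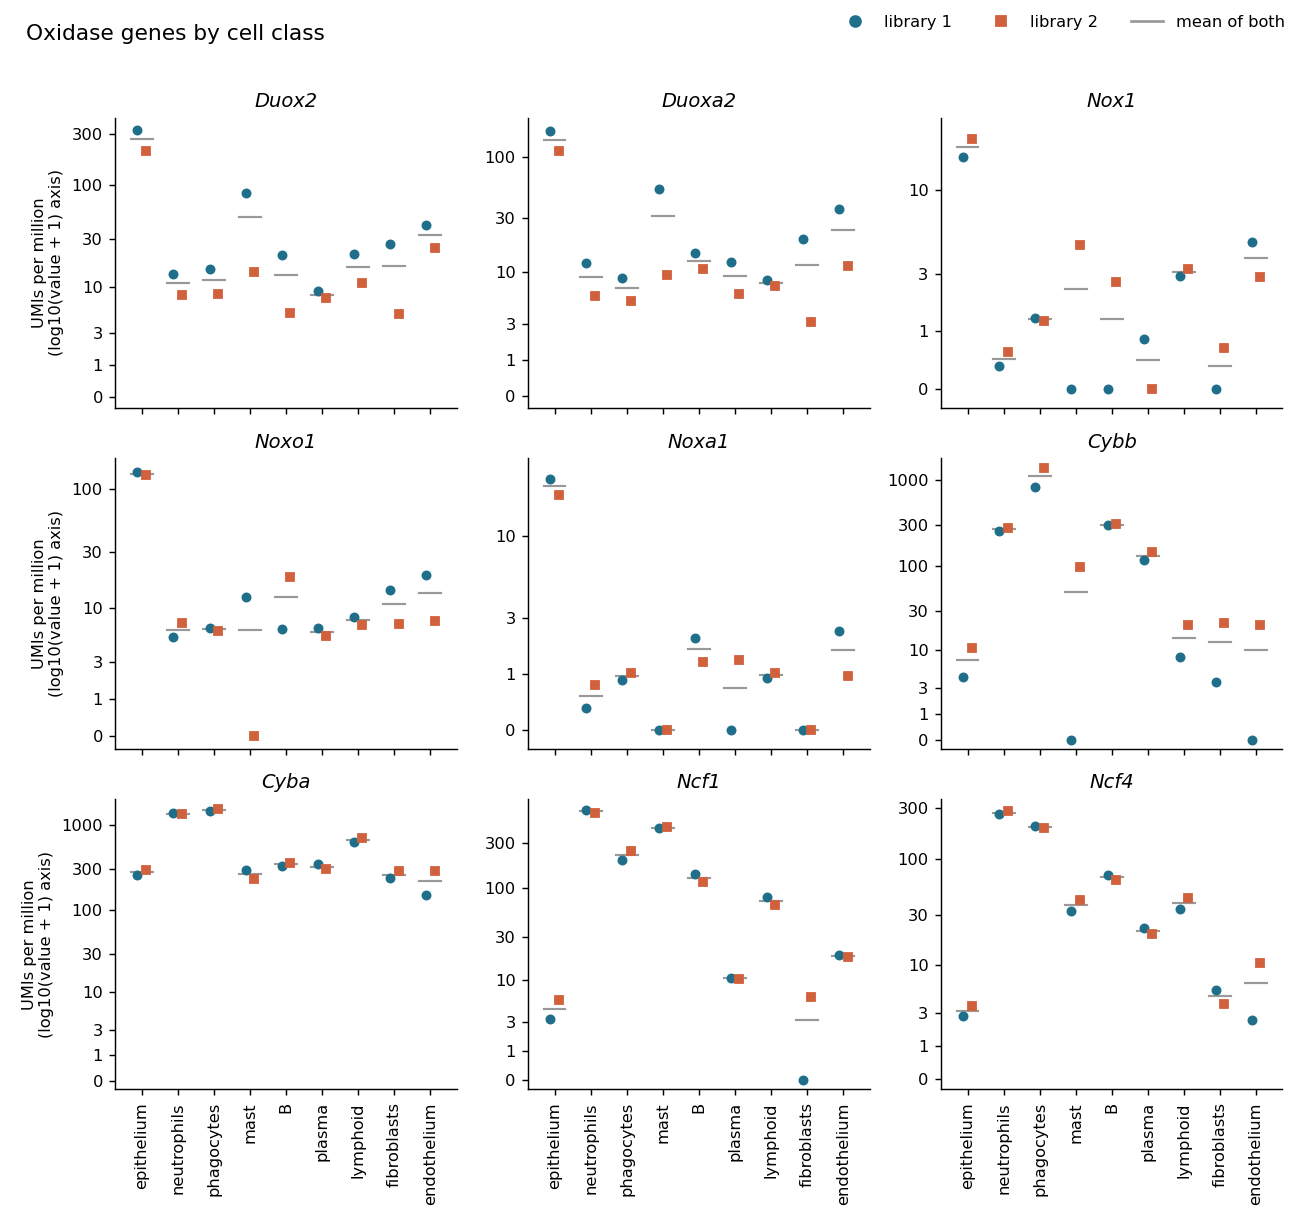
Level of each member in the 9 cell classes with at least 20 cells per library. Circles and squares are libraries 1 and 2, on an axis of log10(CPM + 1), and grey lines are their means. Duox2, Duoxa2, Nox1, Noxo1 and Noxa1 stand highest in epithelium in both libraries, and Cybb stands highest in phagocytes.

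Duox2, the peroxide-making catalytic subunit, stood at 330 and 209 CPM in epithelium. The next class, mast cells, had 82.8 and 14.1 CPM from 20 and 3 UMIs, and the other 7 classes had 5.13 to 41.2 CPM. Epithelium did not overlap any class. Ranked by mean, each of the other 8 overlapped its neighbour, so neighbours could not be ordered. Classes further apart could differ: endothelium (41.2 and 24.8 CPM) lay above lymphoid cells (21.3 and 10.9). Epithelium held 96.4% and 94.1% of the Duox2 UMIs of kept cells. Against the mean of the other classes, which averages the log levels of 8 classes, Duox2 was higher in epithelium by 4.11 ± 0.128 on the log2 scale (SE; edgeR adjusted p = 1.53e-16).

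Epithelial genes were also found outside epithelium. The summed level of the 8 epithelial markers was 21066 and 22464 CPM in epithelium, 1504 and 871 in mast cells, 1820 and 658 in endothelium, 709 and 823 in neutrophils and 636 and 668 in phagocytes. After each cell was thinned to 1000 UMIs, Duox2 was seen in 34.1% and 21.9% of epithelial cells, but in 2.78% and 0.990% of neutrophils and 1.81% and 0.562% of phagocytes. The source of these UMIs outside epithelium was not tested, and the shares were not read as expression. Unthinned median depths were 17626 and 24119 UMIs in epithelium, 6796 and 5698 in neutrophils and 9666 and 7854 in phagocytes.

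Duoxa2, the maturation factor, stood at 166 and 112 CPM in epithelium against 53.9 and 9.41 in mast cells (13 and 2 UMIs). It was higher in epithelium than in the mean of the other classes by 3.59 ± 0.148 (adjusted p = 6.87e-15). Both dual oxidase genes were lower in library 2 epithelium than in library 1. The libraries also differed in epithelial make-up: 1 epithelial subcluster with 908 CPM of Duox2 in library 1 held 371 cells there and 4 cells in library 2. The part of that subcluster in the difference was not tested.

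Nox1, the second epithelial catalytic subunit, stood at 15.4 and 19.5 CPM in epithelium, and no other class passed 4.85 CPM. Its next class, endothelium, rested on 2 and 3 UMIs. With both libraries pooled, epithelium was 5.05-fold higher (95% counting interval 2.16 to 15.6). Noxa1, which activates the NOX1 complex, stood at 21.4 and 17.4 CPM in epithelium and at 2.42 or less elsewhere. Its next class, B cells, had 1 UMI in each library, a pooled ratio of 12.1 with a counting interval of 3.33 to 99.6. Noxo1, the organiser, stood at 136 and 128 CPM in epithelium and at 19.4 or less elsewhere. Against the mean of the other classes the differences were 3.86 ± 0.253 for Nox1, 5.68 ± 0.327 for Noxa1 and 4.03 ± 0.153 for Noxo1 (largest adjusted p = 1.43e-11).

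In epithelium against that mean, 5 of 9 members were higher and 4 were lower, beside 36.7% of all genes called higher and 22.0% called lower. The 4 lower were Cybb (4.39 and 10.5 CPM), Ncf1 (3.32 and 5.78), Ncf4 (2.75 and 3.58) and Cyba (258 and 293). Cyba differed least, by -0.76 ± 0.18 (adjusted p = 0.000954), and was seen in 18.8% and 22.5% of epithelial cells at 1000 UMIs, whereas the other 3 were seen in at most 1.17%.

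Epithelium was divided into colonocytes (absorptive cells of the upper crypt and surface, 1346 and 791 cells), undifferentiated cells (stem and dividing cells of the crypt, 202 and 223) and goblet cells (mucus cells, 141 and 124). The 2 catalytic subunits stood at opposite ends. Duox2 was at 470 and 314 CPM in colonocytes, 101 and 88.6 in goblet cells and 58.7 and 64.2 in undifferentiated cells. Nox1 ran the other way, at 59.4 and 59.8 CPM in undifferentiated cells, 25.7 and 19.6 in goblet cells and 1.59 and 1.24 in colonocytes. Neither gene's colonocyte and undifferentiated values overlapped.

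Colonocytes exceeded undifferentiated cells by 3.55 ± 0.258 for Duox2 (adjusted p = 2.11e-12) and by 3.49 ± 0.269 for Duoxa2 (6.53e-12), edgeR fit on 28 subclass sums and 14537 genes. Nox1 fell by 4.41 on the log2 scale (SE 0.255, adjusted p = 2.64e-14). Noxa1 fell by 2.12 (SE 0.222, 4.79e-09), from 63.0 and 43.1 CPM in undifferentiated cells to 7.68 and 4.797 in colonocytes. Noxo1 did not follow the other 2 genes of the NOX1 complex: it was at 146 and 137 CPM in colonocytes and 122 and 123 in undifferentiated cells.

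In this comparison 5 of 9 members were called higher and 2 lower, beside 35.9% and 27.2% of all genes. The 5 higher were Duox2, Duoxa2, Noxo1 (1.16 ± 0.186), Ncf1 (1.16 ± 0.326) and Ncf4 (0.72 ± 0.299). The last 2 stood at 4.55 CPM or less in both subclasses, and their calls are not read as a result. Here the fit scaled each sum by TMM composition factors, 0.658 and 0.736 for colonocytes and 1.36 and 1.35 for undifferentiated cells. Without these factors the median of all genes moved from 0.23 to -0.67 and the calls from 5214 higher and 3957 lower to 2372 and 7194. Only 2 members were then higher, Duox2 and Duoxa2, whereas Noxo1 was at 0.20 (adjusted p = 0.362), Ncf1 at 0.21 (0.608) and Ncf4 at -0.23 (0.507). Cyba was not called with the factors (0.24 ± 0.219, adjusted p = 0.35) and fell by 0.72 without them (adjusted p = 0.00194), from 379 and 413 CPM in undifferentiated cells to 232 and 248.7 in colonocytes. Cybb was at 10.1 CPM or less in both subclasses and was not called (1.01 ± 0.535, adjusted p = 0.101).

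**Figure D2:**
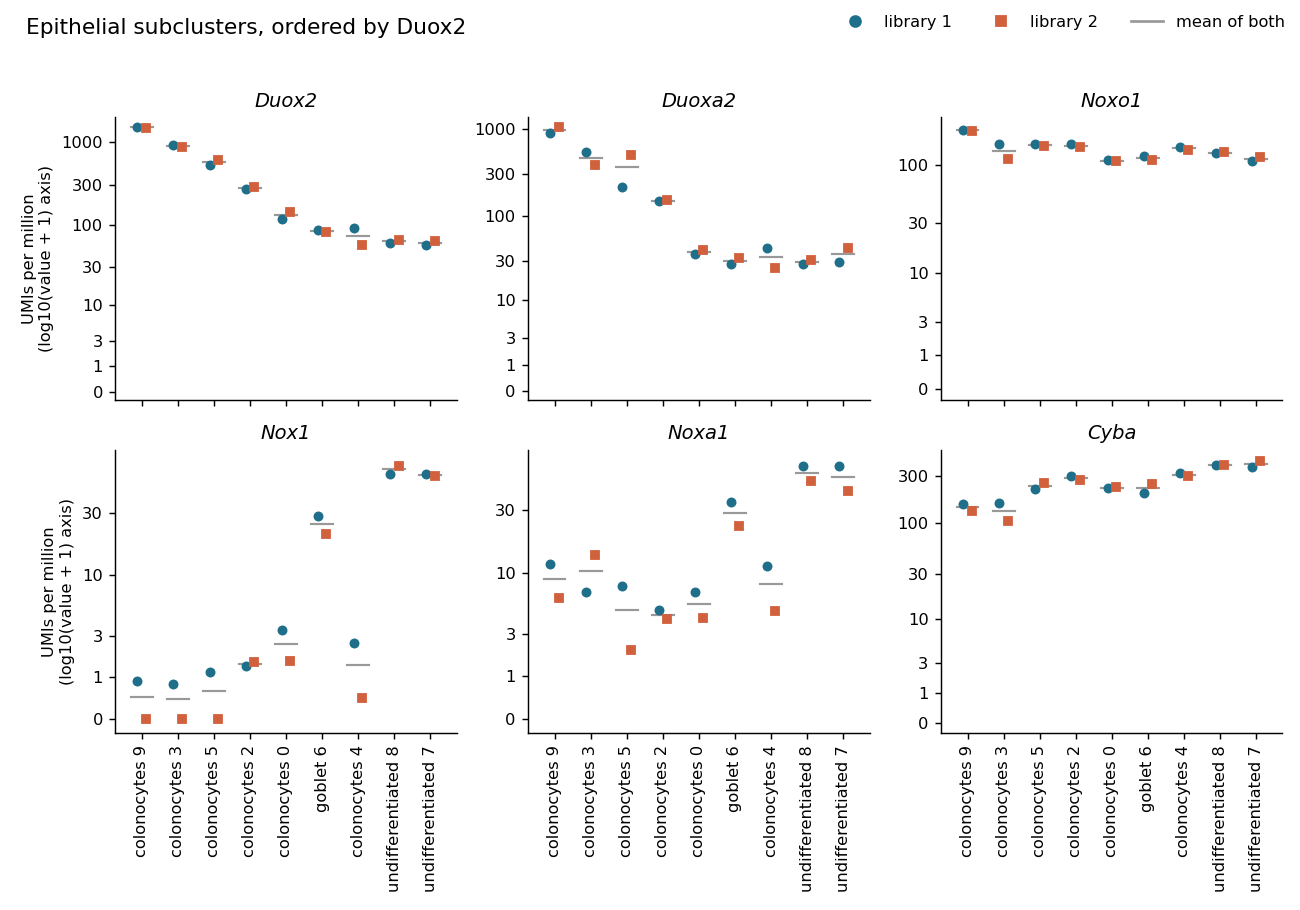
Levels of the epithelial members in the named epithelial subclusters with at least 20 cells per library, on an axis of log10(CPM + 1). Circles and squares are libraries 1 and 2 and grey lines their means. Duox2 and Duoxa2 are highest in subcluster 9 and low in the undifferentiated subclusters 7 and 8, where Nox1 and Noxa1 are highest.

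Within epithelium, 9 named subclusters held at least 20 cells in each library. Duox2 ranged from 56.2 to 1505 CPM in library 1 and from 57.1 to 1458 in library 2. Its highest value in both was in subcluster 9 (101 and 85 cells), led by Atp12a, Nos2, Ubd and Gbp2, where Duoxa2 was at 889 and 1040 CPM and was itself among the leading genes. Subcluster 3, led by Ces2a, Selenop and Aqp8, followed with 924 and 866 CPM of Duox2. Subcluster 5, led by Cxcl5 and Ly6g, had 519 and 609 CPM, and subcluster 2, led by Ido1 and Ly6c1, had 273 and 288. The libraries' values did not overlap between any of these 4.

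The colonocyte subclusters 0 (led by Mal and Alpi) and 4 (led by Hao2 and Aqp4) were low, with Duox2 at 117 and 142 CPM and at 90.1 and 57.1. The undifferentiated subclusters 7, led by Top2a and Mki67, and 8, led by Smoc2, had 56.2 to 64.7 CPM. Depth and mitochondrial content differed along this order. Subcluster 9 had median depths of 10280 and 9224 UMIs and 11.5% and 8.57% mitochondrial UMIs, whereas subclusters 7 and 8 had 26800 to 44850 UMIs and 3.47% to 4.73%. Their part in the Duox2 level was not tested. With cells over 10% mitochondrial UMIs left out, Duox2 and Duoxa2 were still called higher in colonocytes than in undifferentiated cells. That comparison does not cover the order of the subclusters.

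Across the 18 subcluster-by-library points, Pearson's r on log2(CPM + 1) was 0.98 for Duox2 with Duoxa2, 0.90 for Nox1 with Noxa1 and -0.75 for Duox2 with Nox1. Nox1 and Noxo1 gave -0.52, and Duox2 and Cyba gave -0.81. These are descriptions, among 15 gene pairs computed, over points that share libraries and depth. Cyba was at 368 to 420 CPM in subclusters 7 and 8 and at its lowest in subclusters 9 (157 CPM in library 1) and 3 (105 CPM in library 2).

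The same order was seen per cell at equal depth. At 1000 UMIs, Duox2 was seen in 41.0% and 28.7% of colonocytes and in 5.45% and 5.83% of undifferentiated cells. Nox1 was seen in 0.372% and 0.253% of colonocytes and in 5.94% and 7.62% of undifferentiated cells. In subcluster 9, 75.2% and 77.6% of cells had a Duox2 UMI and 59.4% and 61.2% a Duoxa2 UMI. Duoxa2 was seen in 39.6% (95% exact interval 35.5 to 43.9) and 33.9% (27.8 to 40.5) of colonocytes with Duox2, but in 15.5% and 11.5% of those without. The share was higher with Duox2 in each of the 7 colonocyte subcluster-by-library sets with enough cells, from 29.5% against 26.7% in subcluster 3 of library 2 to 53.9% against 31.9% in subcluster 3 of library 1 and 64.5% against 44.0% in subcluster 9 of library 1. The intervals overlapped in 6 of the 7 sets, all but subcluster 3 of library 1 (43.8 to 63.8 against 22.7 to 42.3). Cells are not replicates, and intervals cover counting error only.

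How often a cell held both catalytic subunits depended on the depth. In epithelial cells thinned to 5000 UMIs, a depth added after the data were seen, Duox2 was found in 19.2% (9.63 to 32.5) and 19.4% (10.4 to 31.4) of Nox1-positive cells and in 64.1% and 51.6% of Nox1-negative cells. Without thinning, it was found in 80.3% (74.5 to 85.2) and 76.6% (70.8 to 81.7) of the 228 and 248 Nox1-positive cells and in 86.1% and 79.9% of the others. The share was lower with Nox1 at each of the depths with enough cells, but the unthinned intervals overlapped in library 2 (77.2 to 82.4 for the others). Undifferentiated cells, where Duox2 was low, held 437 and 552 of the 651 and 691 epithelial Nox1 UMIs, and colonocytes held 42 and 24. The split by Nox1 is thus also largely a split by subclass. No such share of Duox2 is given within a subclass. In undifferentiated cells at 5000 UMIs, Noxa1 was found in 35.7% (21.6 to 52.0) and 10.9% (3.62 to 23.6) of Nox1-positive cells, and in 30.3% and 16.2% of the others. The direction thus differed between the libraries for Noxa1, and 42 and 46 Nox1-positive cells limit these shares.

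The phagocyte oxidase was carried by more than 1 class. Cybb, its catalytic subunit, stood at 823 and 1351 CPM in phagocytes, 298 and 309 in B cells, 258 and 275 in neutrophils and 118 and 144 in plasma cells. By CPM these 4 classes did not overlap one another. The order of B cells and neutrophils depended on the scaling. The class nearest below phagocytes was neutrophils in the fit with composition factors and B cells in the fit without them. Mast cells had 0 and 98.8 CPM, and the other 4 classes had 21.2 CPM or less. Phagocytes held 82.2% and 90.7% of the Cybb UMIs of kept cells, and at 1000 UMIs Cybb was seen in 48.9% and 66.2% of phagocytes, 22.1% and 22.4% of B cells and 16.0% and 16.5% of neutrophils.

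Ncf1, the organiser that carries the activating phosphorylation sites, had another order: 660 and 619 CPM in neutrophils, 427 and 433 in mast cells, 197 and 248 in phagocytes and 139 and 116 in B cells. Again none of the 4 overlapped. The mast cell value rested on 103 and 92 UMIs in 30 and 40 cells, and Ncf1 was seen in 32.1% and 24.3% of mast cells at 1000 UMIs, against 0.275% and 0.503% of epithelial cells. The summed level of the 8 neutrophil markers in mast cells was 1910 and 2104 CPM, above the 565 and 897 of epithelium. The 8 include Hdc, a gene also known from mast cells, and no sum without Hdc was taken. The sum is therefore not read as neutrophil RNA in mast cells. The part of neutrophil RNA in the Ncf1 level was not tested. Cybb was seen in 0 of 28 mast cells of library 1, which by 3 counts of the 28 allows a share of up to 10.7%, and in 3 of 37 of library 2, at 1000 UMIs a cell. This limits the cells with a UMI at that depth, not the cells that express the gene.

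Ncf4, the regulator that binds a membrane lipid, stood at 261 and 276 CPM in neutrophils, 201 and 193 in phagocytes and 71.7 and 64.6 in B cells. Cyba, the membrane partner shared by NOX1 and the phagocyte oxidase, was found in every class, at 148 CPM or more. Its CPM was 1446 and 1543 in phagocytes and 1386 and 1331 in neutrophils, and 628 and 696 in lymphoid cells. At 1000 UMIs it was seen in 72.1% and 73.3% of phagocytes, 63.6% and 67.4% of neutrophils and 39.9% and 44.5% of lymphoid cells.

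Neutrophils exceeded the mean of the other classes for 4 members, by 5.25 ± 0.136 for Ncf1, 4.78 ± 0.117 for Ncf4, 3.63 ± 0.240 for Cybb and 2.97 ± 0.136 for Cyba (edgeR, largest adjusted p = 2.18e-11). None was called lower, also at an unadjusted p under 0.05 (edgeR) and with DESeq2. Without composition factors 4 were lower, Duox2 (-1.13), Duoxa2 (-0.92), Noxo1 (-0.85) and Nox1 (-1.99). Each stood at 13.4 CPM or less in neutrophils, and these calls are not read as a result. The background was 28.5% of genes higher and 27.6% lower. Phagocytes exceeded that mean for the same 4, by 4.8 ± 0.218 for Cybb, 3.25 ± 0.124 for Ncf4, 2.50 ± 0.153 for Ncf1 and 2.09 ± 0.143 for Cyba. They were lower for Duox2, Duoxa2 and Noxo1, all at 15.1 CPM or less in phagocytes, beside 28.2% of genes higher and 16.1% lower. At that level these lower calls are not read as a result either. The Noxo1 call (-0.78 ± 0.25, adjusted p = 0.0146) turned to 0.34 without library 1, to 0.28 with a minimum of 500 genes and to 0.29 with cells over 10% mitochondrial UMIs left out.

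Set against phagocytes directly, neutrophils were higher for Ncf1 by 2.44 ± 0.223 (adjusted p = 1.12e-08) and for Ncf4 by 1.36 ± 0.168 (8.56e-07). Cybb was lower by 1.04 (SE 0.354, adjusted p = 0.0178), in CPM 258 and 275 against 823 and 1351. With Cyba, 3 of the 4 members of the phagocyte oxidase were called higher and 1 lower, beside 23.8% and 28.8% of all genes. The fit also called Duox2, Duoxa2 and Noxo1 higher, which makes 6 of 9, but these stood at 15.1 CPM or less in both classes and are not read as a result. The Cybb call was lost with DESeq2 (-0.84, adjusted p = 0.466), without the library as a block (adjusted p = 0.0993) and with doublets kept (0.140).

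**Figure D3:**
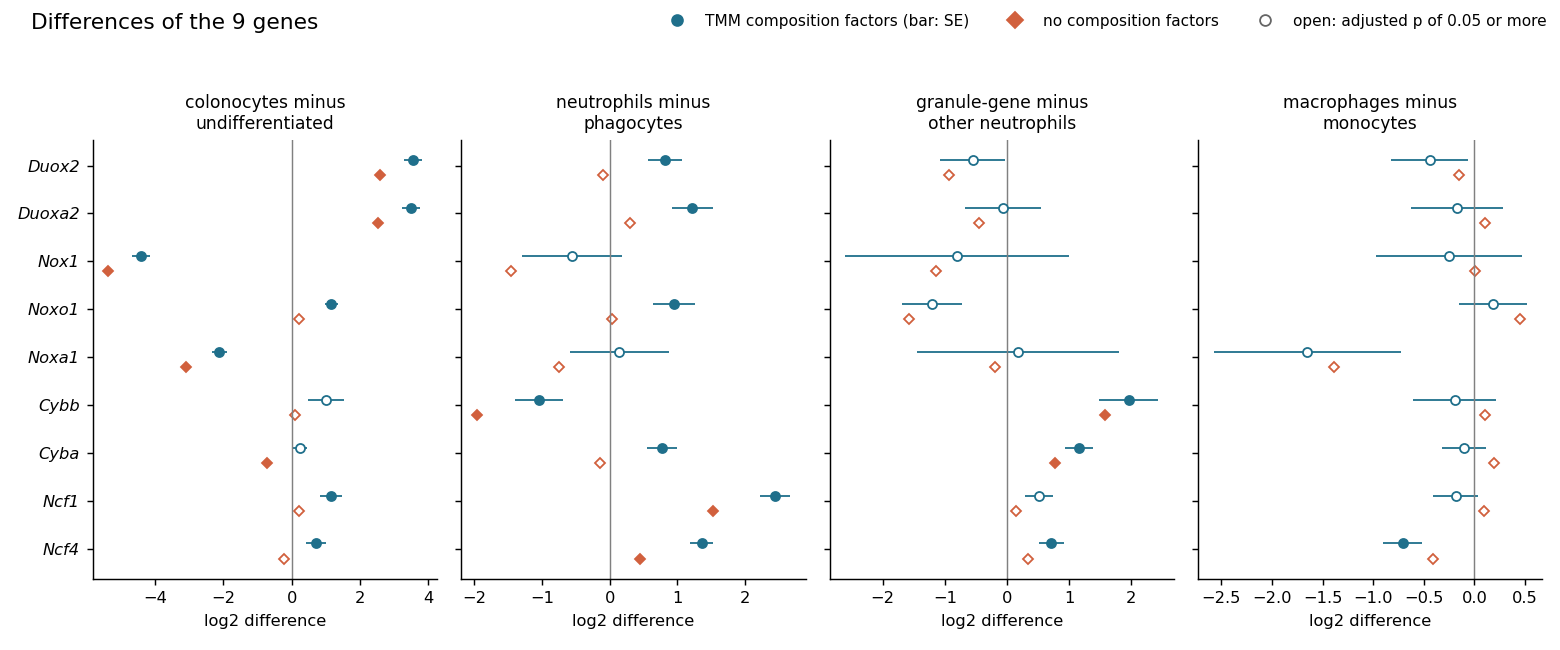
Fitted log2 differences of the 9 members in 4 comparisons. Circles with SE bars are the edgeR fit with TMM composition factors, diamonds the fit without them, and filled symbols passed an adjusted p of 0.05. Duox2 and Duoxa2 lie above 0 and Nox1 and Noxa1 below 0 for colonocytes under both scalings, whereas Cyba changes side for neutrophils minus phagocytes.

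The other 4 calls of neutrophils over phagocytes depended on the TMM factors, which were 0.480 and 0.508 for neutrophils and 0.910 and 0.951 for phagocytes. They were Cyba (0.78 ± 0.224, adjusted p = 0.00619), Duox2 (0.82), Duoxa2 (1.22) and Noxo1 (0.95). Without the factors Cyba was at -0.14 (adjusted p = 0.587), Duox2 at -0.09, Duoxa2 at 0.31 and Noxo1 at 0.03, and none was called. The median of all genes moved from -0.12 to -1.03, and the calls from 3302 higher and 3986 lower to 1217 and 7531. In neutrophils against the mean of the other classes the median moved from -0.10 to -1.23, with 1863 genes higher and 7529 lower in place of 3952 and 3816. The 8 neutrophil markers, S100a8 and S100a9 among them, took 322574 and 293595 CPM of the neutrophil sums. The raw CPM of Cyba ran against its fitted direction. With the UMIs of both libraries pooled, the ratio between neutrophils and phagocytes was 0.891 (counting interval 0.873 to 0.910). That interval leaves out the difference between libraries, where the CPM was 1386 and 1331 against 1446 and 1543. The other 8 members kept the same highest class in CPM and in the fit.

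Neutrophils were divided into granule-gene neutrophils (rich in transcripts of granule proteins such as Ngp, Camp and Ltf; 261 and 614 cells) and other neutrophils (117 and 226). Cybb was at 325 and 305 CPM in the first and 47.2 and 190 in the second, with 24 UMIs behind the value of 47.2. The values did not overlap, and the difference was 1.96 ± 0.481 (adjusted p = 0.00915). Cyba was at 1592 and 1423 CPM against 765 and 1001 (1.16 ± 0.225, adjusted p = 0.00111), and Ncf4 at 272 and 290 against 197 and 245 (0.72 ± 0.202, 0.0258). Ncf1 was at 682 and 618 against 566 and 616, a difference that was not called (0.52 ± 0.226, adjusted p = 0.186). The Cybb difference was 1.06 without library 1 and 3.28 without library 2, with no test.

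So 3 of 9 members were higher in granule-gene neutrophils and 0 lower, beside 5.27% and 2.70% of all genes. At an unadjusted p under 0.05, edgeR gave 4 higher and 1 lower. DESeq2 called 1 higher, Cyba, and 1 lower, Noxo1. The Cybb call was lost under DESeq2 (2.05, adjusted p = 0.110) and without the library block (1.73, 0.159). Without composition factors 2 were higher, as Ncf4 was at 0.34 (adjusted p = 0.381), the median of all genes moved from 0.12 to -0.11 and the calls from 766 higher and 393 lower to 251 and 876. The granule list stood at 41311 and 37566 CPM in granule-gene neutrophils and at 6020 and 12315 in other neutrophils, and median depths were 8760 and 6417 against 4388 and 3554 UMIs. At 1000 UMIs a cell, Cybb was seen in 23.6% and 17.5% of the first and in 3.45% and 11.9% of the second.

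**Figure D4:**
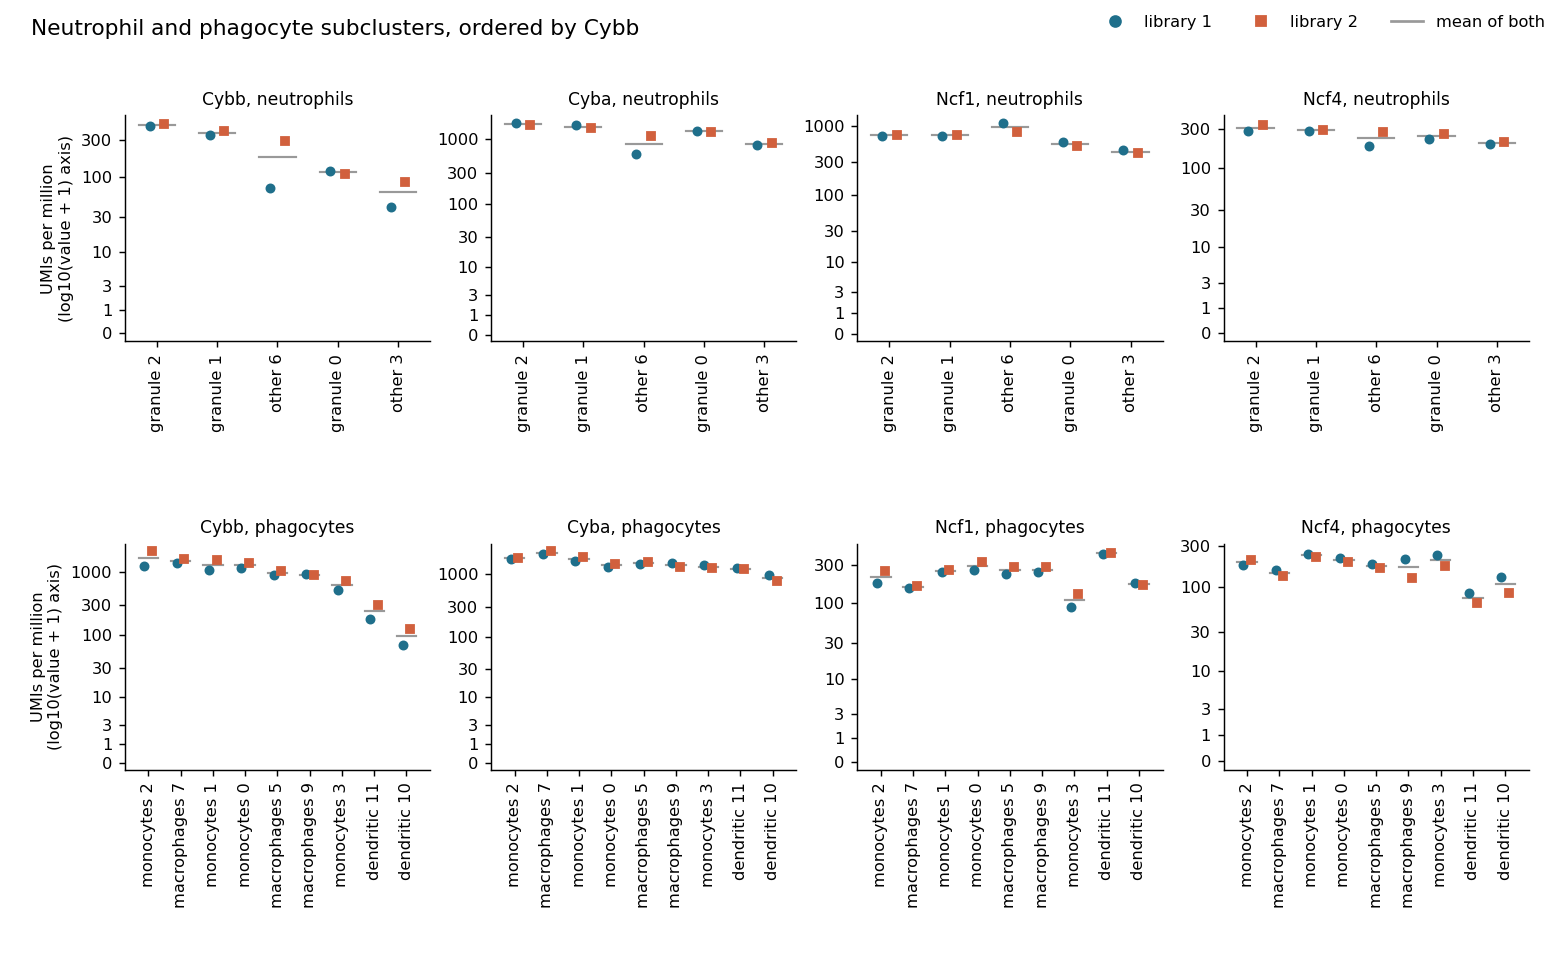
Levels of Cybb, Cyba, Ncf1 and Ncf4 in the named neutrophil and phagocyte subclusters with at least 20 cells per library, on an axis of log10(CPM + 1). Circles and squares are libraries 1 and 2 and grey lines their means. Cybb ranges from 41.2 to 465 CPM in neutrophils and from 70.1 to 1376 CPM in phagocytes of library 1.

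The granule-gene class was not uniform. Subclusters 1 and 2, led by Camp and Ltf among others, scored 0.92 and 1.063 on the granule list. Subclusters 0 (72 and 177 cells, led by Mmp19 and Zfp36l2) and 4 (9 and 167 cells, led by Socs1 and Cxcl10) scored 0.263 and 0.409, where the minimum was 0.25, and had no gene of the list among their leading genes. Cybb was at 356 and 401 CPM in subcluster 1, but at 122 and 112 in subcluster 0 and 120 and 225 in subcluster 4. In library 1 both lay above the subclusters of other neutrophils (41.2 and 73.0 CPM), and in library 2 between them (86.0 and 291).

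Among 5 named neutrophil subclusters with at least 20 cells per library, Cybb was highest in subcluster 2, led by Camp, Ltf and Chil3, at 465 and 484 CPM, and lowest in subcluster 3, led by Clec7a and Steap4, at 41.2 and 86.0. Subcluster 6, led by the interferon-induced genes Rsad2, Ifit1 and Ifit3, had the highest Ncf1 (1085 and 821 CPM) and a Cybb that differed between libraries (73.0 and 291 CPM, from 7 and 129 UMIs). Over the 10 points, r was 0.92 for Cybb with Ncf4, 0.84 for Cybb with Cyba and 0.46 for Cybb with Ncf1.

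Phagocytes held monocytes (480 and 2012 cells), macrophages (175 and 290) and dendritic cells (63 and 115). Subcluster 1, with 116 and 438 of the monocytes, scored 0.503 on the monocyte list and 0.501 on the macrophage list, so its name was close to a tie. Cybb was at 1078 and 1257 CPM in macrophages, 849 and 1463 in monocytes, which overlapped, and 335 and 590 in dendritic cells. Ncf4 was at 180 and 146 CPM in macrophages and 227 and 206 in monocytes, and was the only one of 9 members called between the 2 (-0.71 ± 0.192, adjusted p = 0.011). None was called higher in macrophages, beside 6.89% of genes higher and 8.35% lower. The count of 0 also held at an unadjusted p under 0.05 (edgeR) and with DESeq2. The Ncf4 call was lost with doublets kept (-0.39, adjusted p = 0.301), with a minimum of 500 genes (-0.53, 0.0921) and at resolution 0.5 (-0.0025, 1). It was also lost without composition factors (-0.41, adjusted p = 0.112), where the median of all genes moved from -0.01 to 0.26 and the calls from 1001 higher and 1214 lower to 2186 and 628.

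Levels also differed between phagocyte subclusters. Subcluster 2, monocytes led by Nos2, Ptges and Ifit1, had 1222 and 2083 CPM of Cybb, and subcluster 7, macrophages, had 1376 and 1595, so that the order of these 2 turned between the libraries. Subcluster 7, led by Gpnmb and Mmp12, had the most Cyba, at 2054 and 2274 CPM. Subcluster 10, dendritic cells led by Xcr1, had the least Cybb, at 70.1 and 124 CPM, beside 956 and 774 CPM of Cyba. Subcluster 12, led by Siglech and Ccr9, had 12 cells in library 1 and 44 in library 2: Cybb was at 1271 and 1679 CPM and Ncf1 at 699 and 779, whereas Ncf4 was at 25.6 and 38.0 (3 and 10 UMIs) and Cyba at 469 and 513. Over 18 points of the 9 larger subclusters, r was 0.84 for Cybb with Cyba and 0.00 for Cybb with Ncf1.

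All 4 phagocyte members in 1 cell were seen at 5000 UMIs in 44.2% (37.7 to 50.8) and 42.0% (37.4 to 46.6) of granule-gene neutrophils. The shares were 28.1% and 36.3% in monocytes, 37.6% and 27.6% in macrophages, 7.50% and 33.3% in other neutrophils and 8% and 8.89% in dendritic cells. This depth was added after the data were seen and leaves out shallower cells. Only 40 and 57 of the 117 and 226 other neutrophils reached it. At 1000 UMIs the largest share in any of these groups was 3.88%, in granule-gene neutrophils of library 1. No colonocyte of 1272 and 737 had all 4.

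A list of 10 other oxidase subunits and partners was read in the same fits. Rac2, the leukocyte RAC GTPase, was at 846 and 895 CPM in neutrophils and 266 and 260 in phagocytes (2.64 ± 0.177, adjusted p = 1.32e-10). By CPM it was highest in lymphoid cells (895 and 978), whereas the edgeR fit with composition factors put neutrophils above lymphoid cells by 1.2 ± 0.169. Hvcn1, a proton channel that balances the charge of the burst, was highest in B cells (336 and 328 CPM) and was lower in neutrophils than in phagocytes by 3.11 (SE 0.283, adjusted p = 1.1e-08). Of 7 genes of this list that passed the filter, 2 were higher in neutrophils than in phagocytes, 1 lower and 4 not called, with a median of 0.0068 beside -0.12 for all genes. The other higher gene was Rac1 (0.49 ± 0.162), which was lower without composition factors (-0.42, adjusted p = 0.0187), where 1 of the 7 was higher and 4 lower.

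In epithelium, Rac1 was at 478 and 503 CPM and was higher in colonocytes than in undifferentiated cells by 1.84 ± 0.162 (adjusted p = 8.49e-11). Rac3 was at 15.9 and 17.8 CPM in undifferentiated cells and 4.66 and 6.29 in colonocytes (-0.67 ± 0.288, adjusted p = 0.0446). Duox1 had 7 and 7 UMIs and its factor Duoxa1 101 and 95 UMIs in epithelium, Nox4 had 2 and 19 UMIs in fibroblasts, and Nox3 had no UMI in any class. Cybc1, a chaperone of gp91phox, was highest by CPM in B cells (73.8 and 79.2), and Rap1a, a small GTPase, in plasma cells (358 and 331 CPM). In colonocytes against undifferentiated cells, 5 of the 7 tested were higher, 1 lower and 1 not called, with a median of 0.99 beside 0.23 for all genes. Without composition factors 1 was higher, Rac1, and 1 lower, Rac3.

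Enzymes that supply NADPH to the oxidases or remove their products were read in the same fits. In neutrophils against phagocytes, 23.8% of all genes were higher and 28.8% lower, and a count near these shares is no result about a list. Of 7 genes of NADPH supply, 4 were higher and 1 lower in neutrophils than in phagocytes (median 1.61), led by G6pdx, the first enzyme of the pentose phosphate pathway (3.16 ± 0.203), and Tkt, a transketolase (2.39 ± 0.167). The same 2 were higher in granule-gene than in other neutrophils, G6pdx by 1.82 ± 0.217 and Tkt by 1.63 ± 0.181, as 4 of 7 passed (median 0.96 beside 0.12 for all genes). Of 14 superoxide dismutases and peroxide-removing enzymes, 5 were higher and 8 lower in neutrophils than in phagocytes (median -1.05), with Prdx1 at -2.74 ± 0.229 and Sod2 at -2.34 ± 0.223. Of 8 NRF2-driven antioxidant genes 3 were higher and 3 lower, of 6 activating kinases 2 and 1, and of the 2 peroxidases that passed the filter none was called. Without composition factors, 4 NADPH genes were higher and 3 lower, 0 of the 14 enzymes higher and 8 lower, 2 of the antioxidant genes higher and 5 lower, and 1 of the kinases higher and 4 lower. In granule-gene neutrophils the 14 enzymes gave 2 higher and 1 lower, and the antioxidant, kinase and other subunit lists gave no call. Without composition factors the 14 enzymes gave 0 higher and 2 lower there, and each of those 3 lists gave 0 higher and 1 lower (Txnrd1, Prkcd and Cybc1, named after their values were seen).

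In colonocytes against undifferentiated cells, 6 of those 14 were higher and 4 lower (median 0.48), beside 35.9% and 27.2% of all genes. The peroxiredoxins Prdx6 (4.22 ± 0.292) and Prdx5 (3.13 ± 0.212) rose, whereas the glutathione peroxidase Gpx2 fell by 2.18 (SE 0.256). Of the 8 NRF2-driven genes, 4 were higher and 2 lower, with Srxn1, which repairs oxidised peroxiredoxins, at 3.77 ± 0.248 and Nqo1 at -1.52 ± 0.214. Of the 6 kinases, 4 were higher and none lower, with Prkcd at 3.28 ± 0.176 and Pak1 at 1.68 ± 0.176. Among the 2 peroxidases that passed, Lpo was higher by 1.54 ± 0.242 and Pxdn lower, and of the 7 NADPH genes 2 were higher and 1 lower. The scaling set the balance of these lists: without composition factors 3 of the 14 enzymes were higher and 7 lower, 2 of the 8 NRF2-driven genes higher and 4 lower, 2 of the kinases higher and 2 lower, and 0 of the NADPH genes higher and 5 lower. Prdx6, Prdx5, Srxn1, Prkcd, Pak1, Lpo, Gpx2 and Nqo1 kept their direction and call.

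The genes whose pattern over the 28 subclass sums was most like Duox2 (Pearson's r on log2(CPM + 1), 9255 genes) were Eps8l3 (0.944), Lmo7 (0.942), Muc13 (0.933), Abhd11os (0.931) and Clrn3 (0.929), beside 0.95 for Duoxa2. For Nox1 they were Gvin-ps1 (0.914 and 0.875 on its 2 rows), Cldn2 (0.893), Kcne3 (0.867) and Gvin-ps3 (0.867), beside 0.812 for Noxa1. For Cybb they were Marchf1 (0.886), Tlr7 (0.865), Evi2a (0.853), Irf5 (0.847) and Clec12a (0.842), beside 0.814 for Ncf4. The 28 sums share 2 libraries, and these values are descriptions with no test.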

How the data were processed

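Colon of DSS-treated mice was profiled in 2 single-cell libraries. The authors deposited matrices of raw UMI counts per gene and barcode, made with Cell Ranger 7.0.0 per the file headers and 8.0.0 per the submitters' processing notes, which name build mm10. Per the labels' protocols, capture used a 3' V3 kit and libraries v2 reagents. Of 55357 gene IDs, 52081 were found in GENCODE M21.

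Barcodes with under 200 genes (36 and 9) or at least 20% mitochondrial UMIs (876 and 484) were removed, as were the highest Scrublet scores at 0.8% per 1000 barcodes (302 and 702). Cells were clustered with scanpy 1.11.5 (2000 variable genes, 30 components, 15 neighbours, Leiden resolution 1) without the members and listed genes, and 3 classes were clustered again. Naming rules for low-scoring clusters were changed after the clusters were seen. Sums of the raw counts over each class of a library, where both libraries had at least 20 cells, were tested with edgeR 4.0.16 (TMM, filterByExpr, quasi-likelihood, library as block, 8 residual degrees of freedom for classes and 13 for subclasses), with Benjamini-Hochberg adjustment at 0.05. The repeat numbers pair the sums, as each library is 1 tissue sample. The libraries were not duplicates (chi-square per degree of freedom 197.6 over 23187 genes). Standard errors were derived from the fitted difference and its F value. In data simulated for testing, 4-fold changes were recovered, but 2-fold changes were often missed between subclasses. The changed genes there had ample counts, and all genes had the same fixed spread with no library difference. The recovery therefore does not cover members with few UMIs in a class.

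All members are named, with the other oxidase subunits and partners of 1 list (1 further listed gene is not reported here and is left out of the counts), up to 4 genes of each further list with the largest called differences, and the 5 genes most like Duox2, Nox1 and Cybb. The members and lists were chosen with earlier results of these data known. Alternatives were DESeq2 1.42.0, no composition factors, no filter, no block, other cell filters and resolutions, unnamed subclusters left out, each library left out, and other thinning depths. Sequences are from RefSeq. Exact 95% intervals cover counting error only.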

Additional observations from a re-analysis of the deposited data

Results flagged for a closer look

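Barcodes of no named class (filtered, removed as doublets or unnamed) held 13.4% of all UMIs in library 1 and 14.1% in library 2. They were in none of the comparisons. Each member had more UMIs there than the 3 that a count of 0 allows. With such a share of all UMIs this was near certain, so it singles out no member. Over both libraries they held 18.0% of Duox2 UMIs, 16.0% of Duoxa2, 14.4% of Nox1, 14.6% of Noxo1 and 12.9% of Noxa1. For the phagocyte members the shares were 8.54% of Cybb, 10.1% of Cyba, 8.78% of Ncf1 and 9.0% of Ncf4. Barcodes removed for few genes or high mitochondrial content held 10.5% and 6.84% of Duox2 UMIs and 8.01% and 5.52% of Duoxa2 UMIs, but 0.634% and 0.183% of Cybb UMIs. Barcodes removed as doublets held 6.88% and 11.0% of Duox2 UMIs and 4.44% and 8.10% of Cybb UMIs.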

How the results depend on the processing

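The 5 higher and 4 lower members of epithelium and the 4 higher members of phagocytes kept their counts within 1.5 times under the alternatives run. A source class was called for 9 members, for 7 without composition factors or with DESeq2, and for 8 with no replicate block or with doublets kept. Without composition factors, 4 members became lower in neutrophils against the mean of the other classes, 2 were higher in neutrophils than in phagocytes, 2 were higher in colonocytes and 0 were lower in macrophages. Cyba in neutrophils against phagocytes was -0.137 there (adjusted p = 0.587), and 0.635 to 0.907 under its other alternatives. With doublets kept, 3 members were higher and 0 lower in neutrophils than in phagocytes, and 0 were lower in macrophages. DESeq2 gave 0 lower in neutrophils than in phagocytes, and 1 higher and 1 lower in granule-gene neutrophils. A minimum of 500 genes or resolution 0.5 gave 0 lower in macrophages, and resolution 1.5 gave 1 lower in granule-gene neutrophils. Leaving out 1 library allows no test. The called members then kept their direction, except that 2 to 3 of the 3 members lower in phagocytes did.

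The fits reported hold the library as a block, a pairing of all classes of 1 tissue sample. With no replicate block, 5 and 4 members were called in epithelium, 4 and 0 in neutrophils, 4 and 2 in phagocytes, 4 and 0 for neutrophils against phagocytes, with Cybb losing its calls in neutrophils against phagocytes and between neutrophil subclasses. Elsewhere the block changed no count by over 1.5 times. Over all genes, DESeq2 gave 4579 higher and 4883 lower in epithelium (edgeR 5079 and 3042), 3469 and 3781 in phagocytes (3908 and 2230), 4369 and 4600 in colonocytes (5214 and 3957) and 440 and 683 in granule-gene neutrophils (766 and 393), and edgeR with doublets kept gave 439 and 603 in macrophages (1001 and 1214). A minimum of 500 genes gave 382 and 391 in granule-gene neutrophils, a 10% mitochondrial limit 371 and 382, resolution 0.5 gave 424 and 535, with 564 and 436 in macrophages, and resolution 1.5 gave 539 and 596 there. The cause was not tested for any of these changes. The share of cells with a UMI, taken for each of the 9 members in 1 class, was higher at 2000 than at 500 UMIs a cell and higher again at 5000, a depth chosen after seeing the data that leaves out shallower cells. Without thinning, the shares of Cyba (95.1%), Ncf1 (86.4%) and Ncf4 (71.9%) in neutrophils were below those at 5000 UMIs (99.8%, 89.3% and 72.0%). Small counts limit Nox1 and Noxa1 in the classes outside epithelium, where Nox1 had at most 44 UMIs in a library and Noxa1 at most 22.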
